A study of Mus musculus with 6 samples.

Results

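Zfp711, Zfp369 and Zscan22 encode zinc finger proteins, and their start-site windows were 3 of the promoter windows in which chromatin accessibility was measured here by ATAC-seq. They made up 1.28% of the windows in the table, which holds 23500 bins at 100 bins a window. In ATAC-seq a transposase, Tn5, cuts accessible DNA and tags the ends for sequencing. The 3 windows were taken by gene symbol, and the genes were grouped because earlier results of these libraries placed them higher in one culture condition than in the other. The difference between cultures is therefore given as a description, with no test. The explants were limbs from CD-1 animals, which are outbred mice, here of wild-type genotype, taken 1 day after amputation. One group was cultured at an air-liquid interface (ALI, 3 libraries) and the other in 96-well plates (3 libraries). From each culture 4 limbs were collected. Whether libraries of 1 culture came from separate animals is not stated, so spread and p-values measure only differences between these libraries, which may be technical. By its title the series concerns how oxygen is sensed when limb regeneration begins, and both groups shared genotype and day.

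C2H2 zinc finger proteins are the most numerous class of mammalian DNA-binding proteins, and each finger folds around a zinc ion held by cysteines and histidines. A KRAB domain in many of them recruits repressive chromatin factors, while a SCAN domain, which gives Zscan22 its name, lets such proteins pair with each other. Zfp711 is the mouse counterpart of human ZNF711, an X-linked gene mutated in intellectual disability whose product binds promoters and recruits a histone demethylase. Zfp369, also listed as NRIF2, belongs to the neurotrophin receptor interacting factors. A promoter is usually open over a few nucleosomes around the start site, and the height and breadth of that opening is what the signal here records.

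In GRCm39 coordinates, the Zfp711 start lay on chromosome X at 111510224 and its window ran from 111509224 to 111511223. Zfp369 started on chromosome 13 at 65426629, with a window from 65425629 to 65427628. Zscan22 started on chromosome 7 at 12631743, with a window from 12630743 to 12632742. All 3 genes are on the plus strand and are listed as protein-coding by RefSeq. Each window was measured as depth-normalized signal in 100 bins of 20 bp per library. Exons and untranslated regions inside the windows were not analysed here. Zinc finger genes include families of similar sequence, and the labels do not state how reads that map to several places were treated.

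Of the members, Zscan22 had an entry among the RefSeq promoter sequences, which run from 250 bases before to 50 bases after a start. It is shown because the accessible peak of this gene covered its start site. The entry is in the build GRCm38.p6, chr7:12897559-12897858, plus strand, and was matched by symbol. Coordinates were not converted, so the start of the entry and the start used for the signal may differ by some bases.

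Zscan22: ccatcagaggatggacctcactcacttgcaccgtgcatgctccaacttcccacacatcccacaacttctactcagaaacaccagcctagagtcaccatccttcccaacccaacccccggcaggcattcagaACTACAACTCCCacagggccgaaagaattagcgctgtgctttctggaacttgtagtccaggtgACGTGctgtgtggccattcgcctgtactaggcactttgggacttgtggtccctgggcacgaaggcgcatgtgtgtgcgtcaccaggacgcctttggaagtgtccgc

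Capitals mark the matches among 10 motifs searched on both strands. ACGTG, the core to which hypoxia-inducible factors bind and which many other sequences contain, occurred once, on the plus strand from −56 to −52 bp of the RefSeq start. It was present in 21.6% of the RefSeq promoters of genes in the table and in 19.6% of all 32851 RefSeq mouse promoters. An element of the type bound by ZNF143, the first run of capitals, occurred once, from −119 to −108 bp. That motif was added after the sequence had been read. It was present in 2.45% of the RefSeq promoters of genes in the table, which is 5 entries with that of Zscan22 among them, and in 0.95% of all. Shares and medians in this paragraph count RefSeq entries. Some genes of the table have several entries, and others, such as Zfp711 and Zfp369, have none. The other motifs were not found in these 300 bases, namely GGGCGG (the GC box, in 53.4% of the promoters of the table), CCAAT (37.3%), TATAAA (14.2%), CCGGAA (the ETS core, 16.7%), the NRF1 motif (7.35%), GCGTG (a second hypoxia response core, 40.2%), TGACGTCA (0.49%) and CACGTG (the E-box, 8.82%). CACGTG contains ACGTG. GC content was 56%, against a median of 58.7% in the promoters of the table, and there were 11 CG dinucleotides against a median of 17.5. A match is a description of letters, and binding was not measured.

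Whole libraries differed in level, which bears on every value below. Mean signal over all promoters was 18.6 in ALI replicate 2 and 14.7 in 96-well replicate 3, and between 10.1 and 12.4 in the other 4 libraries. Depth relative to the mean library, estimated from the smallest step between low bin values, ranged from 0.767 to 1.29. The median change over all promoters was 0.14 on the log2 scale of the deposited values and −0.03 after each library was centred on its median deviation. Of lists of tissue markers, 8 of 10 ridge and ectoderm genes and 1 of 9 limb mesenchyme genes were in the table, and 0 of 11 blood, endothelial and muscle genes, so cell composition could not be read from it. In bulk tissue, fewer cells with an open promoter and less opening per cell cannot be told apart.

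The strongest of the 3 windows were those of Zfp369 and Zfp711, and Zscan22 was lower than both in every library. Mean window signal over the 6 libraries was 14.5 at Zfp369, 13.98 at Zfp711 and 10.5 at Zscan22, and the median promoter of the table had 10.6. Zfp369 stood above 63.8% of all promoters, Zfp711 above 61.7% and Zscan22 above 49.4%. Mean coverage over the windows was between 52.2 and 269.2 reads per base. Within libraries, log2 signal was higher at Zfp369 than at Zscan22 by 0.41 ± 0.08 (SD, n = 6 libraries) and higher at Zfp711 than at Zscan22 by 0.37 ± 0.05, each in 6 of 6 libraries. Both differences gave an exact two-sided sign-flip permutation p = 0.031, the smallest that 6 libraries allow, with a Benjamini-Hochberg adjusted p of 0.040 over 9 such tests between members. Between Zfp711 and Zfp369 the difference was −0.04 ± 0.10, with single libraries from −0.16 to 0.09 (exact permutation p = 0.44), so a difference in level was not detectable there. The order depended on the region averaged. In the central 400 bp Zscan22 was the strongest, and Zfp711 and Zfp369 differed from it by −0.31 and −0.19 (exact permutation p = 0.031 for each). That region leaves out part of the Zfp711 peak, which stood downstream of the start. Mean summit signal over the 6 libraries was 69.4 at Zfp711, 53.3 at Zfp369 and 68.4 at Zscan22.

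Accessibility at Zscan22 formed 1 narrow peak over the start site. Its summit lay at −30 or −50 bp in every library, and the peak was 200 to 240 bp wide, measured between the points midway from the flanks to the summit. Summit signal was 53.9, 114.03 and 81.5 in ALI replicates 1 to 3 and 44.7, 44.8 and 71.2 in 96-well replicates 1 to 3. The ALI libraries held the highest values, but the lowest of them stood below 96-well replicate 3, so the cultures overlapped. Signal in the central 400 bp was 23.5 times that of the flanks (the outer 200 bp on each side) in the mean profile, against a median of 4.76 for all promoters and 5.49 for the 20 promoters of nearest mean signal. Of those 20, 1 had a higher ratio. The mean profile was 220 bp wide, and 16 of the 20 neighbours were wider. By Pearson correlation over the 100 bins, the profile was most like those of Khdrbs2 (r = 0.99), which encodes an RNA-binding protein, Ackr3 (0.99), a chemokine receptor gene, and Phyh (0.99), a gene of peroxisomal fatty acid oxidation. Neighbouring bins share reads, so these r values describe shape only, and median-centred changes of those 3 genes were 0.01, −0.15 and −0.02.

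The Zfp711 peak stood on the transcribed side of the start used in the table. The summit was at 170 bp in 6 of 6 libraries, with heights of 66.1, 113.7 and 68.6 in ALI and 46.9, 49.3 and 71.9 in 96-well replicates 1 to 3. Of the signal in the central 1000 bp, 11.4% fell upstream of the start, where the median promoter had 46.8% and 1 promoter of the table had less. Signal also differed at the ends of the window. It was 0.83 in the outermost 100 bp upstream and 10.6 in the outermost 100 bp downstream, averaged over the 6 libraries. The signal-weighted centre lay at 187.98 bp, downstream of the centres of all 20 promoters of nearest signal. Within libraries it lay 212.4 ± 19.9 bp downstream of that of Zfp369 and 190.8 ± 7.43 bp downstream of that of Zscan22 (SD, n = 6; exact two-sided permutation p = 0.031 and adjusted p = 0.040 for each). The profile was most like that of Gtf2b (r = 0.98 over 100 bins), which encodes the general transcription factor TFIIB, followed by Tmed8 and Nfkb2 (0.96 each), and those 3 profiles had centres between 165.07 and 195.4 bp.

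**Figure D1:**
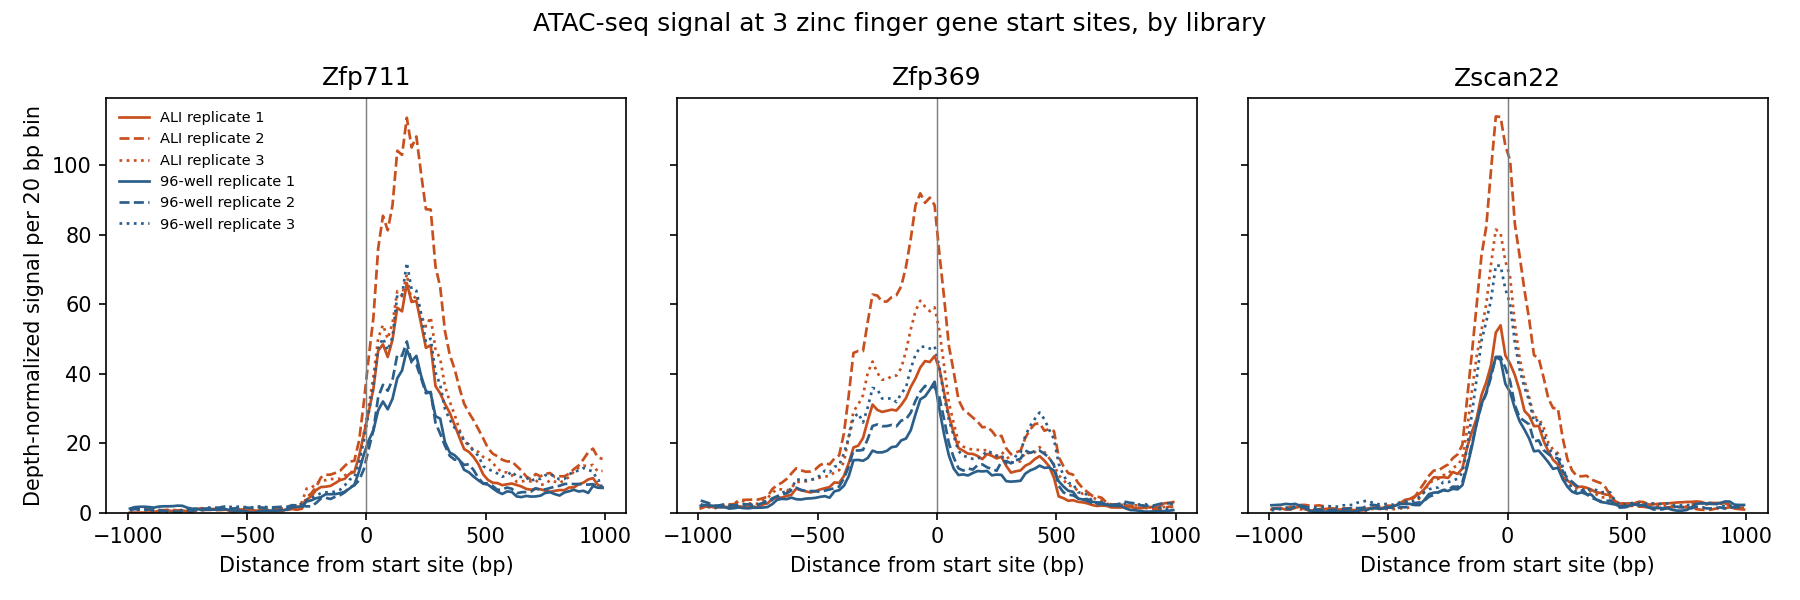
ATAC-seq signal (vertical axis, depth-normalized, per 20 bp bin) against distance from the start site in bp, one line per library, ALI in orange and 96-well in blue, for Zfp711, Zfp369 and Zscan22. The Zfp711 summit stands at 170 bp in each library, Zfp369 has a shoulder before and a hump after its main peak, and Zscan22 has 1 narrow peak.

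The Zfp369 window was the broadest of the 3 and was made of several parts. Mean signal over the libraries was 51.2 in the 100 bp before the start, 34.1 from −300 to −200 bp, where a shoulder lay, and 15.4 from 300 to 400 bp, before a second rise to 18.3 from 400 to 500 bp. The peak was 380, 400 and 400 bp wide in ALI and 240, 360 and 420 bp wide in 96-well replicates 1 to 3. The narrow 240 bp belonged to 96-well replicate 1, whose shoulder reached 0.51 of the signal before the start, against 0.67 to 0.71 in the other 5 libraries. Zfp369 was wider than Zscan22 by 143.3 ± 68.6 bp and Zfp711 was wider than Zscan22 by 70 ± 32.9 bp (SD, n = 6; exact permutation p = 0.031, adjusted p = 0.040 for each). Without smoothing the bins, neither width difference passed (130 and 56.7 bp, exact permutation with adjusted p = 0.070 for each). Measured lower on the peaks, nearer the flanks, Zfp369 was wider than Zscan22 by 356.7 bp, while Zfp711 was wider by 36.7 bp, which did not pass (exact permutation, adjusted p = 0.18). In width, Zfp711 minus Zfp369 was −73.3 ± 68.9 bp (SD, n = 6; exact permutation p = 0.062), with 1 library of the opposite sign. Measured lower on the peaks, that difference was −320 bp and passed (exact permutation, adjusted p = 0.035). The centre of Zfp369 lay upstream of that of Zscan22 in 6 of 6 libraries, with a difference of −21.6 ± 16.1 bp (SD, n = 6; exact permutation p = 0.031, adjusted p = 0.040). The Zfp369 profile was most like those of Khdc4 (r = 0.96), an RNA-binding protein gene, Bmp7 (0.96), a bone morphogenetic protein gene, and Rfng (0.95), which encodes a modifier of Notch receptors.

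All 3 windows had higher mean signal in ALI than in 96-well culture, by 1.45 to 1.50 times, and on the deposited scale the libraries of the cultures overlapped at each. At Zfp711 the window signal was 13.03, 22.1 and 15.2 in ALI replicates 1 to 3 and 9.41, 9.86 and 14.3 in 96-well replicates 1 to 3. ALI replicate 1 stood below 96-well replicate 3. The means were 16.8 ± 4.76 (SD, n = 3) and 11.2 ± 2.68, a log2 change of 0.53. At Zfp369 the values were 12.2, 23.4 and 16.2 in ALI and 8.89, 11.2 and 14.9 in 96-well libraries. Again ALI replicate 1 lay below 96-well replicate 3, and the means of 17.3 ± 5.71 and 11.6 ± 3.03 gave a log2 change of 0.51. At Zscan22 they were 9.17, 16.7 and 11.6 in ALI and 7.26, 7.63 and 10.9 in 96-well libraries, with the same pair overlapping. Its means of 12.5 ± 3.84 and 8.61 ± 2.03 gave a log2 change of 0.47. ALI replicate 2 and 96-well replicate 3, the libraries of highest signal over all promoters, were the highest of their culture at each gene.

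Centred on the median promoter, the changes were 0.36 at Zfp711, 0.34 at Zfp369 and 0.30 at Zscan22, with 7, 9 and 18 promoters of the table above them. Every ALI library then stood above every 96-well library at 3 of 3 members. Of all promoters, 21.7% had that separation, and the members had been chosen on this contrast. On the deposited scale 0 of 3 were separated, against 3.83% of all promoters, and limma called 0.0% of promoters in either direction (adjusted p under 0.05). The separation after centring was closest at Zfp369, where ALI replicate 1 had a centred log2 signal of 3.82 and 96-well replicate 2 one of 3.805. With cyclic loess, which removes the trend of change with signal, the changes were 0.35, 0.32 and 0.37 in the same order of genes, and at Zfp369 the cultures overlapped, while 19.1% of all promoters were separated with ALI higher. The cultures also overlapped at Zfp369 with centring on the stronger promoters, and at Zscan22 in the centred central 400 bp. Scaling set the order, since Zscan22 was the lowest of the 3 after centring and the highest after cyclic loess. Without ALI replicate 2 and 96-well replicate 3, a choice made after the data were seen, the centred changes were 0.36, 0.32 and 0.28. With ALI replicate 2 alone left out, the deposited changes fell to 0.33, 0.28 and 0.25, where the median over all promoters was 0.02.

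**Figure D2:**
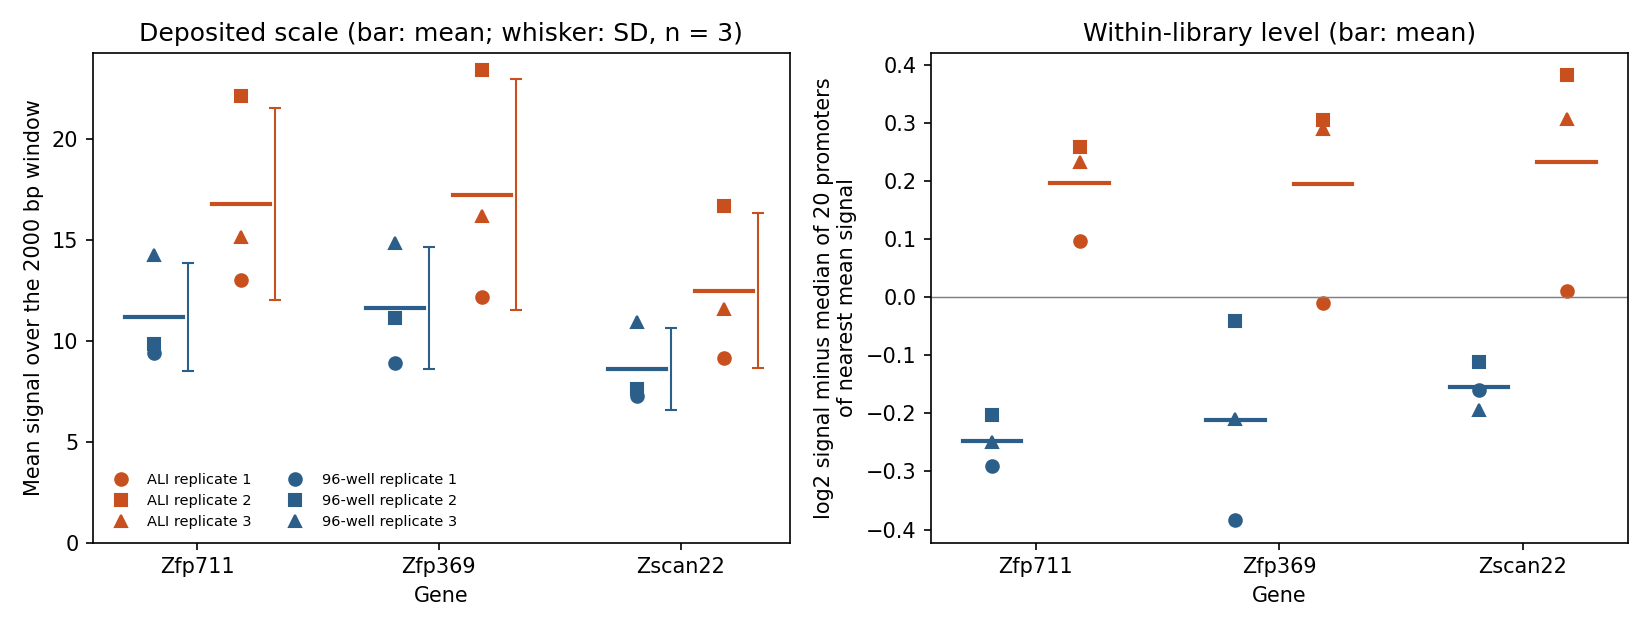
Left, mean window signal (deposited scale) of each library at the 3 genes, with bars at the mean and whiskers for the SD (n = 3). Right, log2 signal of each library minus the median of the 20 promoters of nearest mean signal, where each ALI library stands above each 96-well library at each gene, by the smallest margin at Zfp369. The genes were chosen on this contrast, and the share of all promoters separated on this scale was not computed.

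The members were also set against promoters of similar strength, library by library. The 20 promoters of nearest mean signal to Zfp711 spanned a signal of 13.1 to 14.7 and had a median centred change of −0.07, from −0.30 to 0.31, and 0 of them exceeded Zfp711. For Zfp369 the 20 had the same median and range, since the 2 genes shared 18 of their 20 neighbours, and again 0 exceeded the member. For Zscan22 the median was −0.08, from −0.37 to 0.38. One of those 20 was higher, Lsm10, which encodes a protein of histone mRNA processing. After centring, every ALI library stood above every 96-well library at 1 of the 20 neighbours of Zfp711. The same held at 2 of the 20 neighbours of Zfp369 and at 2 of the 20 of Zscan22. Among the 40 promoters of nearest signal the counts were 9, 10 and 5 in the same order of genes. Of all promoters, 21.7% had that separation. The median centred changes of those 40 were 0.01, 0.01 and −0.07, so these comparisons depended on how many neighbours were taken. Set against the median of its 20 neighbours within each library, Zfp711 stood at 0.10, 0.26 and 0.23 log2 units in ALI. In 96-well replicates 1 to 3 it stood at −0.29, −0.20 and −0.25. Zfp369 stood at −0.01, 0.31 and 0.29 in ALI and at −0.38, −0.04 and −0.21 in 96-well libraries. Zscan22 stood at 0.01, 0.38 and 0.31 and at −0.16, −0.11 and −0.19. All 3 windows lay below their neighbours in the 96-well libraries, while in ALI replicate 1 Zfp369 and Zscan22 were about level with them. The neighbours were matched on the mean of these same libraries, and the members were chosen for higher ALI signal. Opposite positions in the cultures follow in part from those choices, so nothing is read from them. Change also varied with signal over the table, with negative centred changes at 87.2% of the promoters below the median signal and at 23.9% of those above it.

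**Figure D3:**
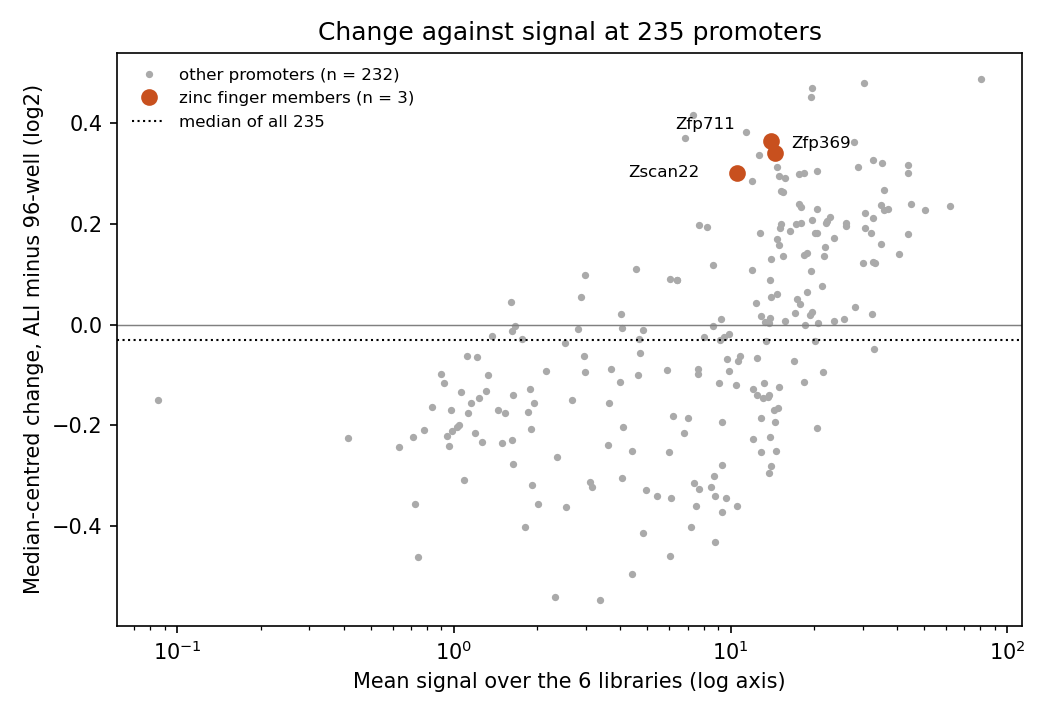
Median-centred change, ALI minus 96-well (log2), against mean signal over the 6 libraries (log axis) for all promoters of the table. Zfp711, Zfp369 and Zscan22 (orange) lie at signals of 10.5 to 14.5 with changes of 0.30 to 0.36, above most promoters of like signal, and the dotted line marks the median of −0.03.

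Along the windows, the higher ALI signal lay mainly in the peaks, and at Zfp711 also at the downstream end. In the central 400 bp the median log2 ratio of the bins on the deposited scale was 0.63 at Zfp711, 0.73 at Zfp369 and 0.59 at Zscan22. In the flanks it was 0.01, −0.03 and −0.11. Over all promoters, too, the median change on the deposited scale was larger in the central 400 bp (0.21) than over the whole window (0.14). A larger difference near the start was therefore not particular to these 3 windows. The flanks of Zfp711 were unequal, since its outermost 100 bp downstream had 12.7 ± 3.91 in ALI and 8.60 ± 2.26 in 96-well libraries (SD, n = 3), 1.47 times higher in ALI, while the outermost 100 bp upstream had 0.61 and 1.04. Flank signal was 5.91 ± 1.73 in ALI and 4.68 ± 0.90 in 96-well libraries at Zfp711 (SD, n = 3), 1.85 ± 0.09 and 1.77 ± 0.69 at Zfp369, and 1.55 ± 0.14 and 1.78 ± 0.41 at Zscan22. Bins in which all ALI libraries exceeded all 96-well libraries numbered 16 of 100 at Zfp711, 8 at Zfp369 and 9 at Zscan22, against 5.34% of the bins of all windows. The members were chosen for higher ALI signal, and neighbouring bins share reads, so nothing is read from these counts. The separated bins sat on the sides of the peaks, where ALI replicate 1 cleared 96-well replicate 3, and not at the summits.

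At Zfp711 the separated bins ran from −240 to 20 bp, on the weak upstream foot, and from 320 to 380 bp. In the 100 bp before the start, signal was 14.3, 19.1 and 14.3 in ALI and 9.91, 8.54 and 12.5 in 96-well replicates 1 to 3. In most bins upstream of −300 bp the ratio was below 1, with signals near or below the pseudocount of 1.06. At Zscan22 the separated bins lay between −360 and −180 bp, on the upstream foot of the peak. From −400 to −200 bp signal was 8.85, 11.4 and 8.87 in ALI and 5.10, 5.25 and 7.13 in 96-well libraries, or 1.66 times higher in ALI. At Zfp369 they lay between 20 and 180 bp, on the downstream slope.

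At Zfp369 the difference between cultures was uneven along the window. The hump from 380 to 500 bp had the same mean signal in both cultures, 18.4 ± 5.37 in ALI and 18.2 ± 6.53 in 96-well libraries (SD, n = 3), a ratio of 1.01. The 100 bp before the start, in the same libraries, had 63.8 ± 23.97 and 38.6 ± 7.49, a ratio of 1.65, and the upstream shoulder a ratio of 1.73. Within each library, the hump reached 0.33, 0.27 and 0.28 of the signal before the start in ALI and 0.38, 0.47 and 0.54 in 96-well replicates 1 to 3. All ALI libraries thus had a lower ratio than all 96-well libraries, as at 22.2% of the promoters with signal before the start in every library. These regions were picked after the profiles had been seen, so nothing is read from that separation. The signal-weighted centre of the Zfp369 peak lay at −24.97, −50.5 and −45.7 bp in ALI and at −8.32, −4.95 and −16.4 bp in 96-well libraries. All ALI centres were thus upstream of all 96-well centres, as at 16.4% of the promoters with a centre in every library. Zfp711 centres overlapped between cultures, at 180.03 to 190.08 bp in ALI and 186.1 to 192.5 bp in 96-well libraries, and so did those of Zscan22, at −13.02 to −2.28 bp and −4.82 to 8.17 bp.

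**Figure D4:**
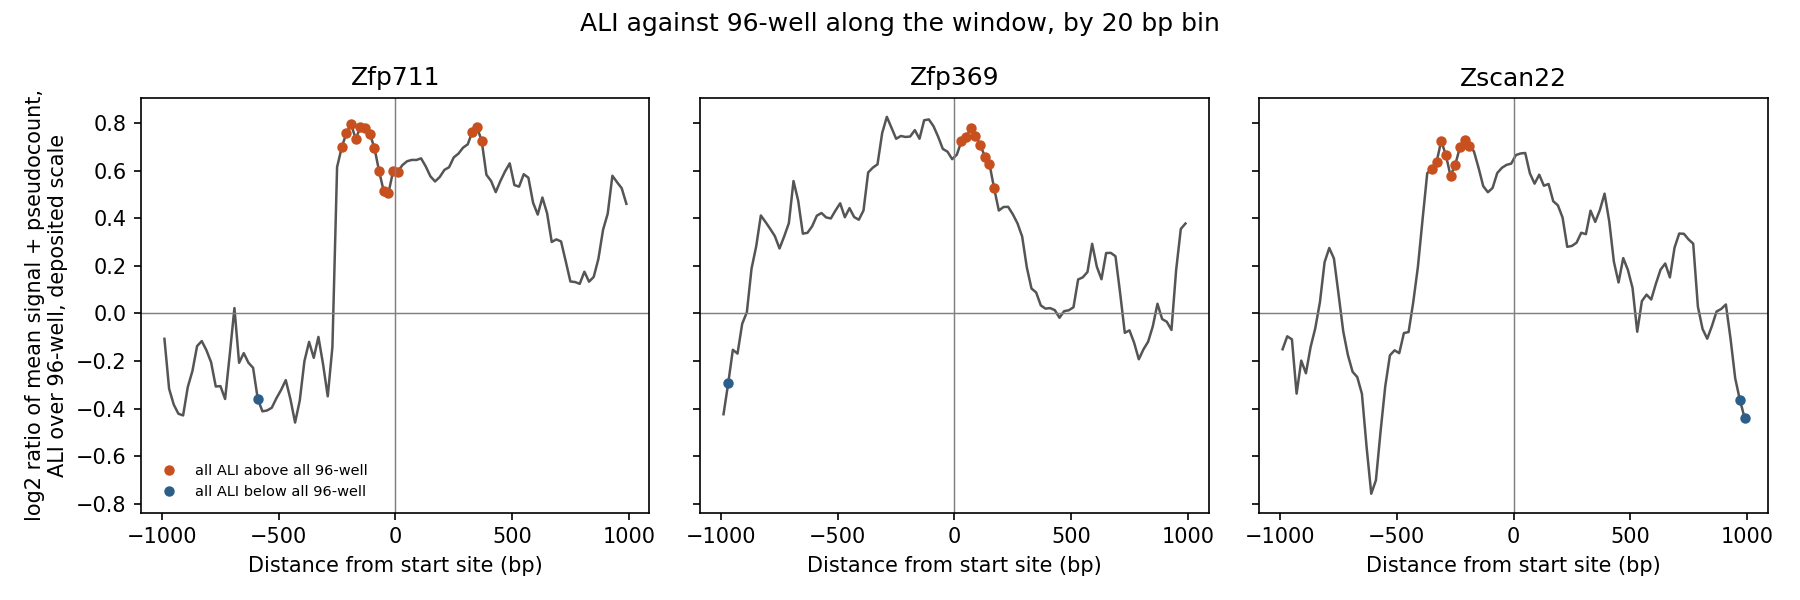
Log2 ratio of mean ALI over mean 96-well signal (each plus the pseudocount, deposited scale) by 20 bp bin against distance from the start site, with dots on bins where all ALI libraries lie above (orange) or below (blue) all 96-well libraries. The ratio is near 0 over the Zfp369 hump at 380 to 500 bp and reaches 0.80 at Zfp711, 0.83 at Zfp369 and 0.73 at Zscan22.

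Over the 6 libraries the members moved alike after centring, with Pearson r of 0.98 between Zfp711 and Zscan22, 0.95 between Zfp369 and Zscan22 and 0.92 between Zfp711 and Zfp369. Each r rests on 6 libraries in 2 cultures, and the members were chosen for that difference. Ranked by r among all other promoters, Zscan22 was 7 and Zfp369 was 27 for Zfp711. For Zfp369, Zscan22 was 2 and Zfp711 was 6, and for Zscan22, Zfp711 was 3 and Zfp369 was 10. Promoters outside the 3 were thus closer to each member. The library patterns most like Zfp711 were those of Btbd6 (r = 0.99), Timeless (0.99), a replication and clock gene, and Slbp (0.99), which encodes the histone stem-loop binding protein. Those most like Zfp369 were Sim1 (0.98), a transcription factor gene, Zscan22 and the lipid transfer gene Stard4 (0.94), and those most like Zscan22 were Slbp (0.98), Stard4 (0.98) and Zfp711. Shape did not follow the same order. Over the 100 bins, the profile of Zfp711 had r of 0.22 with Zfp369 and 0.38 with Zscan22, below the median of 0.40 over all promoters, whereas Zfp369 and Zscan22 had r of 0.84.

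The list of C2H2 zinc finger genes had 6 in the table, and the other 3 were the Sp factors Sp6, Sp8 and Sp9, which act in the limb ectoderm and its ridge. Their windows were weaker, at 2.94, 4.39 and 7.65 in mean signal over the libraries. Of these 3, limma called 0 higher and 0 lower in ALI after centring, where 11.5% of all promoters were called higher and 10.2% lower. Those 27 higher calls became 7 without 96-well replicate 1, 10 without 96-well replicate 2 and 41 without 96-well replicate 3, and the 24 lower calls became 15 without either of the first 2 or without ALI replicate 3. The centred changes were −0.06 at Sp6, −0.25 at Sp8 and −0.10 at Sp9 (limma, Benjamini-Hochberg adjusted p = 0.83, 0.12 and 0.54). The sign at Sp6 and Sp9 depended on the scaling. Both were positive on the deposited values (0.11 and 0.07) and after cyclic loess (0.12 and 0.04). Sp8 was negative on all 3 scales, but its change was smaller on the deposited values (−0.08) and after cyclic loess (−0.07) than after centring. After centring, every ALI library stood below every 96-well library at Sp8, as at 41 promoters in all. At Sp6 and Sp9 the cultures overlapped. Sp8 signal did not peak at its start, with a ratio of central to flank signal of 1.01, against 1.82 at Sp6 and 3.58 at Sp9. Whether the members differ from the Sp genes in their change was not tested, because the members were chosen on it.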

How the data were processed

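ATAC-seq libraries of 3 ALI and 3 96-well limb explant cultures were used. Per the file headers, the deposited values are signal: coverage scaled for sequencing depth and averaged with deepTools over 20 bp bins, reaching 1000 bp to either side of a start site, with all-zero rows skipped. The normalization formula is not stated there. Per the submitters' processing notes, whose list has no stated roles, the build named is GRCm39 and the tools named are deepTools 3.5.1, Picard, SAMtools 1.16.1, Bowtie2 2.5.1 and Trim Galore 0.6.10. A Tn5 shift, duplicate removal and fragment filters are not given in the sources used here. Coverage by reads of 150 bases smooths peaks. Widths were taken midway between flanks and summit and leave out weaker signal, such as the Zfp369 hump. They therefore do not bound the extent of open DNA.

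Window means were taken as log2(signal + 1.06), the pseudocount being 0.1 of the median promoter signal. Changes over all promoters were fitted with limma 3.58.1 in R 4.3.3 (eBayes with trend, Benjamini-Hochberg threshold 0.05), tested on simulated data. On the deposited values its prior degrees of freedom were infinite, so the trend alone set each variance there. They were not recorded for the other scalings. Median centring subtracted each library's median deviation from the promoter means. Members were compared with each other by exact sign-flip permutation of within-library differences, with Benjamini-Hochberg adjustment over 9 tests. Widths used a running mean of 3 bins, and centres the signal above flank level in the central 1000 bp. Low bin values fell on multiples of a smallest step (tolerance 0.1 step), which gave relative depth; total reads are unknown, so no counting interval is given. Python 3.11.15 was used.

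The members, lists and comparisons were chosen with earlier results of these data known. Named promoters were the members, the 3 most like each in profile and in library pattern, and the zinc finger list. RefSeq protein sequences were not used here. On the deposited values, deviations of same-numbered libraries had r of 0.67, −0.61 and −0.60, with no common sign. The highest r, 0.81, was between ALI replicate 2 and 96-well replicate 3, the libraries of highest signal over all promoters. Replicate numbers were therefore not taken as pairs, though these r cannot show whether the numbers mark pairs. No libraries held identical values, with at least 99.5% of bins differing.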

Additional observations from a re-analysis of the deposited data

How the results depend on the processing

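Window changes of the 3 members kept their sign under the 17 alternatives run for each. These were pseudocounts, scalings, the central 400 bp, a replicate block and left-out libraries. The members were chosen for higher ALI signal in these libraries, so a kept sign adds no support. Each change moved by less than 1 SD between libraries, pooled within cultures on the deposited scale. That SD was wide, at 0.34 for Zfp711, 0.40 for Zfp369 and 0.35 for Zscan22. The lowest changes were 0.31, 0.28 and 0.24. Leaving out 1 library at a time gave deposited changes of 0.33 to 0.71 at Zfp711, 0.28 to 0.72 at Zfp369 and 0.25 to 0.65 at Zscan22, and centred changes of 0.32 to 0.43, 0.25 to 0.46 and 0.25 to 0.39. With the replicate number as a block the changes were 0.53, 0.51 and 0.47 by construction. The block was run although the replicate numbers were not taken as pairs, and after centring it lowered the promoters called by limma from 51 to 39. Leaving out 1 library moved those 51 calls to between 22 (without 96-well replicate 1) and 58 (without 96-well replicate 3), with 25 without 96-well replicate 2. On the deposited values limma called 0 promoters, with 7 at an unadjusted p under 0.05, and 0 with 1 library left out (range 0 to 0), with the replicate block, with other pseudocounts, without the trend, in the central 400 bp and without the promoters of lowest signal. Without both ALI replicate 2 and 96-well replicate 3 it called 79. Quantile normalization gave 38 calls, equal flanks 73, cyclic loess 61, centring of the central 400 bp 60 and centring on the stronger promoters 87. The causes were not tested.

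Between members, with 1 library left out the smallest exact p is 0.062, so no difference could then pass. The values ranged from 0.35 to 0.38 (Zfp711 minus Zscan22 level), 0.39 to 0.44 (Zfp369 minus Zscan22 level), −0.06 to −0.01 (Zfp711 minus Zfp369 level), 3 to 4 and 6.6 to 8.4 bins of 20 bp (width of Zfp711 and of Zfp369 minus Zscan22), −5 to −3 bins (width of Zfp711 minus Zfp369), 206.7 to 216.3 bp and 188.98 to 193.02 bp (centre of Zfp711 minus that of Zfp369 and of Zscan22) and −24.9 to −16.3 bp (centre of Zfp369 minus that of Zscan22). The level differences from Zscan22 reversed in the central 400 bp (−0.31 for Zfp711 and −0.19 for Zfp369), a region that leaves out part of the Zfp711 peak. Without a running mean, the widths relative to Zscan22 were 2.83 bins for Zfp711 and 6.5 bins for Zfp369, short of the threshold. Measured lower on the peak, nearer the flanks, Zfp711 minus Zscan22 was 1.83 bins and no longer passed, while Zfp711 minus Zfp369 was −16 bins and passed (exact permutation adjusted p = 0.035). Centre differences kept their calls over the central 600 bp and over whole windows. Total reads are unknown, so precision rests on 3 libraries a culture.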
